A study of Homo sapiens with 6 samples.

Results

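The genes described here encode the HSP90 chaperones and the co-chaperones that work with them. The 10 members were picked by gene name. They are the 4 HSP90 paralogs HSP90AA1, HSP90AB1, HSP90B1 and TRAP1, and the 6 co-chaperones CDC37, AHSA1, STIP1, PTGES3, FKBP4 and CHORDC1, out of 26485 genes in the count table. Every one of the 10 passed the filter on low counts, which left 12854 genes to test. The cells were THP1, a human acute monocytic leukemia line, exposed for 6 h to withaferin A (WFA), a steroidal lactone from a medicinal plant, or to DMSO, its solvent. There were 3 libraries of each group, from 3 independent experiments, and neither group carries a named genetic change. The sample labels give the WFA concentration as 1 mM, and the methods give the same figure in μM. Libraries held between 11006035 and 13872810 counts. Of 11 monocyte and myeloid markers, LYZ was the highest, between 1381 and 2090 CPM, whereas MPO did not exceed 3.22 CPM and CD14 did not exceed 7.33 CPM. Summed markers of erythroid, T and hepatocyte identity stayed under 1 CPM in any library, and those of B cells stayed between 1.95 and 4.42 CPM. CPM is the count of a gene scaled to a common library total after TMM scaling, which adjusts for the makeup of a library. It is a relative measure, so a change in RNA per cell cannot be told apart from a change in the other genes.

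HSP90 is an ATP-driven dimeric clamp that finishes the folding of signalling kinases, steroid receptors and other unstable client proteins. The cytosol holds a stress-inducible form (HSP90AA1) and a more constant form (HSP90AB1), the endoplasmic reticulum holds GRP94 (HSP90B1), and mitochondria hold TRAP1. Co-chaperones load clients, bridge HSP90 to HSP70, or set the pace of ATP hydrolysis. HSP90 also restrains HSF1, the transcription factor of the heat shock response, which binds heat shock elements made of inverted GAA repeats. Some genes of the endoplasmic reticulum carry another sequence, the ER stress response element.

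Promoter windows of RefSeq (GRCh38.p14, 250 bases before to 50 after a start site) were found for 9 members, and FKBP4 was not among them. Windows were searched on both strands for 3 adjoining heat shock units, that is GAA, TTC and GAA, or TTC, GAA and TTC, each 2 bases from the next. Such a match lay in the windows of HSP90AA1, HSP90AB1 and CHORDC1, and in those of 0.608% of all 27305 genes with a window. The ER stress response element, CCAAT followed 9 bases later by CCACG, matched at 2 places in HSP90B1 and in the windows of 0.0916% of all genes. The shorter letters GAANNTTC or TTCNNGAA, which the 3-unit motif contains, matched in 16.2% of genes. Among members without the longer motif STIP1 alone had them, once, as TTCCAGAA just after a start site (chr11:64186184-64186191). None of these motifs was found in the windows of TRAP1, CDC37, AHSA1 or PTGES3. The matching stretches are printed because they differ between members whose RNA is compared here. Each runs 5′ to 3′ on the strand of the gene, with the motif in capitals.
HSP90AA1, chr14:102087112-102087140, minus strand: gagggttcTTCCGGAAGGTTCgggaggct
HSP90AB1, chr6:44247758-44247863, plus strand: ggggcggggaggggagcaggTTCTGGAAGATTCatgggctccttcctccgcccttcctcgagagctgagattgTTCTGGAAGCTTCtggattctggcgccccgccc
CHORDC1, chr11:90223084-90223112, minus strand: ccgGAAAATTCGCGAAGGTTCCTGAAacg
HSP90B1, upstream copy, chr12:103930211-103930239, plus strand: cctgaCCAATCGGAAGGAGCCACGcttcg
HSP90B1, downstream copy, chr12:103930316-103930344, plus strand: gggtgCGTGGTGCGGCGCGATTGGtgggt
The HSP90AB1 stretch carries 2 separate matches, and the CHORDC1 stretch 3 that overlap. The stretch in HSP90AB1 is intronic in GENCODE 29, while the others fall in an exon of some transcript. A match describes the letters and is not evidence of binding.

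WFA treatment raised 8 of the 10 members and lowered 1, with a threshold of 0.05 on the Benjamini-Hochberg adjusted p of the quasi-likelihood test in edgeR. Across all tested genes 25.8% were called higher and 24.7% lower, 50.5% in all. Each of the 8 rises was over 2-fold, a size reached by 8.11% of all tested genes, and the fall of TRAP1 was under 2-fold, a size passed by 5.2% of all tested genes. CDC37 was only just over 2-fold. It was under 2-fold with total counts (log2 fold change 0.966) and without DMSO replicate 3 (0.965). Values are given as CPM by library, then as the log2 fold change of WFA over DMSO with its standard error (SE). The median log2 fold change was 1.77 over the members and 0.02 over all tested genes. For 9 of the 10 members the WFA and DMSO libraries did not overlap, which held for 58.1% of tested genes, and 8 were apart with WFA higher, as were 29.6% of tested genes. The exception was HSP90B1.

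**Figure D1:**
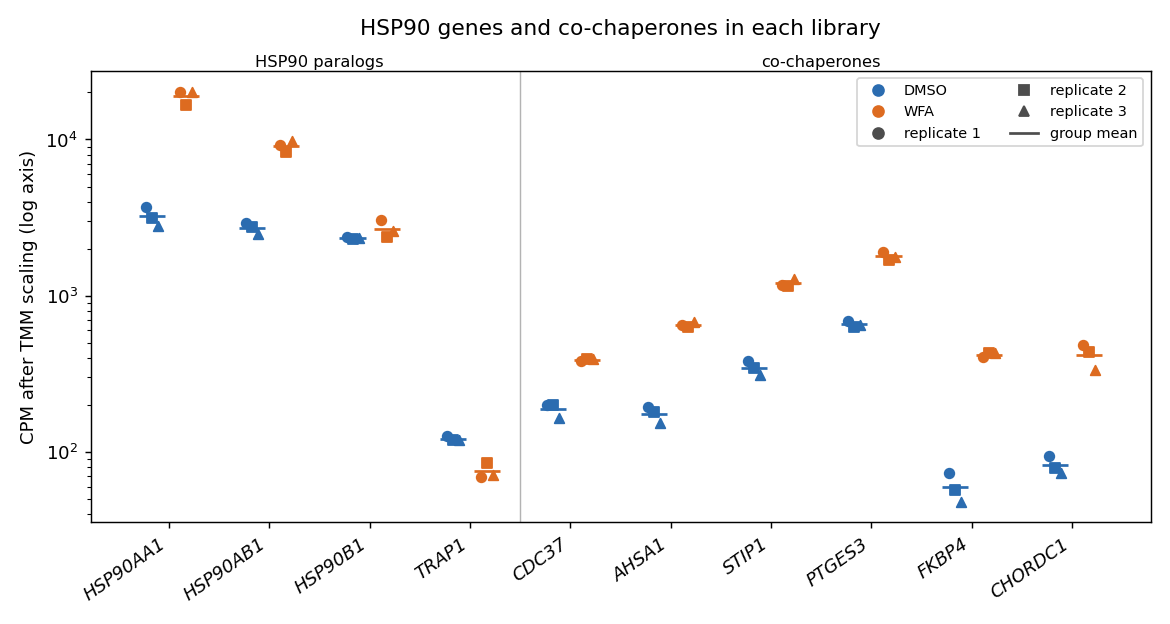
CPM after TMM scaling (log axis) of each member in the 3 DMSO and 3 WFA libraries, with a symbol for each replicate and a line at the group mean. The groups are apart for each gene except HSP90B1, and TRAP1 is the member that is lower with WFA.

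HSP90AA1 (chr14:102080738-102139699), the inducible cytosolic chaperone, had 3712, 3165 and 2787 CPM in DMSO replicates 1, 2 and 3. With WFA it had 20220, 16692 and 20202 CPM. Each WFA library was thus far above each DMSO library. The means were 3221 ± 465 and 19038 ± 2032 CPM (SD, n = 3 each). On the log2 scale HSP90AA1 rose by 2.56 (SE 0.14, edgeR adjusted p = 2.33e-09), or 5.91-fold. Of all tested genes 0.980% had a higher log2 fold change. In raw counts, which favor long transcripts, HSP90AA1 stood at position 10, 11 and 10 among all genes in the DMSO libraries. It was the most counted gene of all in each of the WFA libraries.

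HSP90AB1 (chr6:44246166-44253888), the constitutive cytosolic chaperone, had 2941, 2753 and 2490 CPM with DMSO and 9177, 8322 and 9844 CPM with WFA. The groups were again apart. The means were 2728 ± 226 and 9114 ± 763 CPM (SD, n = 3 each). Its log2 fold change was 1.74 (SE 0.12, edgeR adjusted p = 1.78e-08), or 3.34-fold. Its position among all genes by raw count moved from 12, 14 and 13 to 5, 6 and 4.

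The rise of HSP90AA1 was larger than that of HSP90AB1 within every library pair. The ratio of their counts, which does not depend on scaling between libraries, was 1.26, 1.15 and 1.12 with DMSO and 2.20, 2.01 and 2.05 with WFA. The groups did not overlap, and the log2 ratio rose by 0.83 on average, against SDs of 0.09 with DMSO and 0.07 with WFA (n = 3 each). HSP90AA1 therefore took 52.8% to 55.8% of the counts on both cytosolic genes with DMSO, and 66.7% to 68.8% with WFA. Two-sided, an exact permutation of the libraries gave p = 0.1, the smallest value that 3 libraries against 3 allow, and p = 0.1125 after adjustment over the 9 ratios compared. This permutation, like the others reported here, did not use the pairing of libraries by experiment.

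HSP90B1 (chr12:103930107-103953645), the GRP94 chaperone of the endoplasmic reticulum, had 2377, 2315 and 2352 CPM with DMSO. With WFA it had 3046, 2371 and 2612 CPM. Replicate 2 of WFA lay below replicate 1 of DMSO, so the groups overlapped, although WFA was higher in each experiment, by 0.36, 0.03 and 0.15 on the log2 CPM scale in replicates 1, 2 and 3. Also the 3 WFA libraries spread more widely than the 3 DMSO libraries. The log2 fold change was 0.19 (SE 0.11) and did not pass the threshold (edgeR adjusted p = 0.162, or 0.0576 with the replicate number as a block). Within libraries the log2 ratio of HSP90B1 to HSP90AB1 was -0.21 ± 0.12 with DMSO and -1.77 ± 0.17 with WFA (SD, n = 3 each), with no overlap (exact permutation p = 0.1). The log2 ratio of HSP90AA1 to HSP90B1 was 2.39 higher with WFA, again with no overlap.

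TRAP1 (chr16:3651639-3717597), the HSP90 of mitochondria, was the member that fell. It had 126, 119 and 119 CPM with DMSO and 69.1, 84.8 and 71.3 CPM with WFA. Its highest WFA library was well below its lowest DMSO library. The log2 fold change was -0.69 (SE 0.09, edgeR adjusted p = 2.14e-05), so 0.619 of the DMSO level was left. The ratio of HSP90AA1 to TRAP1 counts was between 23.4 and 29.5 in DMSO libraries and between 197 and 292 in WFA libraries. In GENCODE 29, 1531 of the 5227 exon bases of TRAP1 are shared with DNASE1 on the other strand. DNASE1 did not exceed 17.8 CPM, and the library kit does not mark strand. The part of those reads in the value of TRAP1 was not tested.

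The cytosolic HSP90 genes and the co-chaperones took a larger share of the counts with WFA than with DMSO. HSP90AA1 and HSP90AB1 accounted for 0.682%, 0.60001% and 0.553% of all counts with DMSO and 2.83%, 2.43% and 2.93% with WFA. The mean share rose from 0.612% ± 0.065 to 2.73% ± 0.267 (SD, n = 3 each), or 4.46-fold. The 6 co-chaperones rose from 0.155% ± 0.011 to 0.474% ± 0.011 of counts (SD, n = 3 each), or 3.05-fold. An exact permutation test gave p = 0.1 for each of these shares, the smallest possible. Of the counts on the 4 paralogs, HSP90B1 held 26.0% to 30.3% with DMSO and 7.98% to 9.37% with WFA, although its own level had not passed the test.

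**Figure D2:**
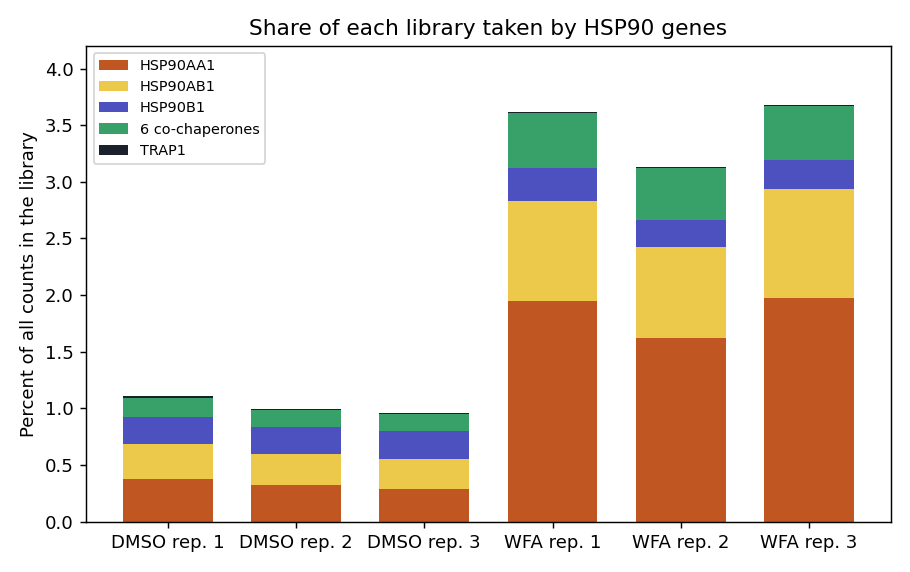
Percent of all counts in each library (bar height, from 0) on HSP90AA1, HSP90AB1, HSP90B1, the 6 co-chaperones summed, and TRAP1. All 10 members together took 0.959% to 1.11% of counts in DMSO libraries and 3.13% to 3.67% in WFA libraries, with HSP90AA1 the largest part of each WFA bar.

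FKBP4 (chr12:2794953-2805423) encodes FKBP52, an immunophilin that binds the tail of HSP90 through a tetratricopeptide repeat (TPR) domain and acts in steroid receptor complexes. It had the highest log2 fold change of the members. It had 73.6, 57.2 and 48.1 CPM with DMSO and 404, 429 and 430 CPM with WFA. The SDs were 12.9 CPM with DMSO and 14.9 CPM with WFA (n = 3 each), and the groups were far apart. The log2 fold change was 2.82 (SE 0.13, edgeR adjusted p = 5.53e-10), or 7.04-fold, and 0.716% of tested genes were above it. FKBP5, the closely related immunophilin FKBP51, went the other way. It had 148 ± 10.4 CPM with DMSO and 104 ± 18.1 CPM with WFA (SD, n = 3 each). The fold change of FKBP5 was -0.51 on the log2 scale (SE 0.11, edgeR adjusted p = 0.00156). The count ratio of FKBP4 to FKBP5 was 0.465, 0.384 and 0.350 in DMSO replicates 1, 2 and 3 and 3.30, 4.10 and 5.00 in the WFA replicates, a 10.3-fold difference of the means on the log scale (exact permutation p = 0.1).

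CHORDC1 (chr11:90201160-90223364), a zinc-binding co-chaperone with a CS domain like that of p23, had 94.5, 79.2 and 73.1 CPM with DMSO and 484, 439 and 336 CPM with WFA. WFA replicate 3 was the lowest of its group, as it was for no other member. The log2 fold change was 2.35 (SE 0.13, edgeR adjusted p = 3.24e-09), or 5.10-fold.

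AHSA1 (chr14:77457870-77469474) encodes the activator of the HSP90 ATPase. It had 195, 179 and 154 CPM with DMSO and 648, 635 and 679 CPM with WFA. Its log2 fold change was 1.89 (SE 0.10, edgeR adjusted p = 1.94e-09). STIP1 (chr11:64185272-64204543) encodes HOP, which holds HSP70 and HSP90 together through its TPR domains. It had 383, 347 and 312 CPM with DMSO and 1174, 1159 and 1288 CPM with WFA, a log2 fold change of 1.80 (SE 0.10, edgeR adjusted p = 3.30e-09). For both genes every WFA library was above every DMSO library.

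These 2 co-chaperones moved close to HSP90AB1. Within libraries the log2 ratio of STIP1 to HSP90AB1 was -2.98 ± 0.03 with DMSO and -2.91 ± 0.06 with WFA (SD, n = 3 each). The difference of 0.06 stayed between 0.03 and 0.09 when each library was left out in turn, and the groups overlapped (exact permutation p = 0.2). The log2 ratio of AHSA1 to HSP90AB1 was 0.16 higher with WFA, with SDs of 0.05 and 0.08 and no overlap (exact permutation p = 0.1). Of the 9 ratios, that of STIP1 to HSP90AB1 was the 1 whose groups overlapped.

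PTGES3 (chr12:56663341-56688408) encodes p23, which holds HSP90 in its closed state. It had 690, 631 and 649 CPM with DMSO and 1919, 1699 and 1773 CPM with WFA. The log2 fold change was 1.45 (SE 0.10, edgeR adjusted p = 1.60e-08). CDC37 (chr19:10391134-10420121), which brings kinases to HSP90, had the smallest rise. It had 199, 200.03 and 166 CPM with DMSO and 382, 392 and 394 CPM with WFA, a log2 fold change of 1.05 (SE 0.09, edgeR adjusted p = 3.49e-07). The groups of both genes were apart. Count ratios to CDC37 rose within libraries, by 0.84 on the log2 scale for AHSA1 and by 1.29 for CHORDC1, with no overlap between groups (exact permutation p = 0.1 each).

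Among DMSO libraries replicate 1 had the highest CPM of the 3 DMSO libraries for 9 of the 10 members, all except CDC37, and replicate 3 had the lowest for 7. Among WFA libraries replicate 2 had the lowest CPM for 6 members, while replicate 3 had the highest for 5 and replicate 1 for 4. Differences within the same experiment for HSP90AA1 were 2.45, 2.40 and 2.86 on the log2 CPM scale in replicates 1, 2 and 3. For FKBP4 they were 2.45, 2.90 and 3.16, whereas for PTGES3 they were 1.48, 1.43 and 1.45.

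Levels were compared between genes only after division by the length of the gene's merged exons in GENCODE 29. With DMSO, HSP90AB1 was the highest member at 915 ± 76.0 CPM per kb, ahead of HSP90AA1 at 614 ± 88.6 and HSP90B1 at 500.1 ± 6.58 (SD, n = 3 each). PTGES3 followed at 193 CPM per kb, then STIP1, CDC37, AHSA1, TRAP1, FKBP4 and CHORDC1, the last at 7.72 CPM per kb. In that order the libraries of CDC37 and AHSA1 overlapped, and those of other neighbours did not. With WFA, HSP90AA1 was first at 3628 ± 387 CPM per kb and HSP90AB1 second at 3058 ± 256 (SD, n = 3 each), but these overlapped. HSP90B1 and PTGES3 also overlapped, at 570.1 ± 72.9 and 529 ± 32.9 CPM per kb (SD, n = 3 each). AHSA1 stood above CDC37, FKBP4 and CHORDC1 stood above TRAP1, and TRAP1 was last at 14.4 ± 1.63 CPM per kb (SD, n = 3). With the longest transcript as the length, HSP90AA1 and HSP90AB1 kept their places in both groups, at 918 and 1020 CPM per kb with DMSO and 5424 and 3408 with WFA. Their overlaps turned, however, since by that length the libraries of both genes overlapped with DMSO (794 to 1057 against 931 to 1099.8 CPM per kb) and not with WFA, where the lowest HSP90AA1 library was at 4755 and the highest HSP90AB1 library at 3681. HSP90B1 and PTGES3 no longer overlapped with WFA, and FKBP4 and CHORDC1 overlapped with DMSO. A pair of co-chaperones changed places in each group, CDC37 with AHSA1 with DMSO and STIP1 with AHSA1 with WFA.

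**Figure D3:**
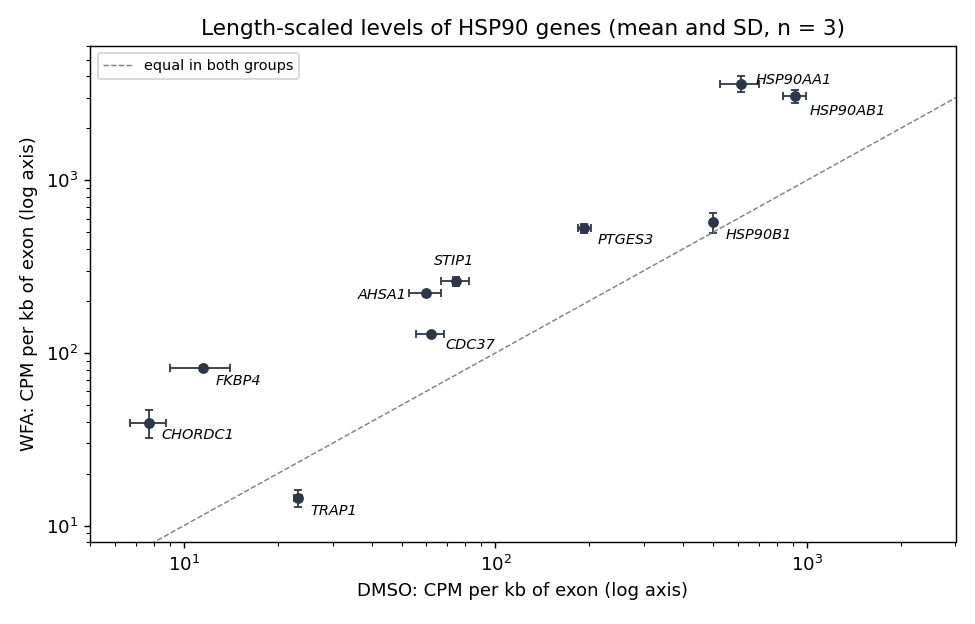
Level of each member with DMSO (horizontal, CPM per kb of merged exons, log axis) and WFA (vertical, same unit, log axis), as mean and SD of 3 libraries. Points above the dashed line of equality are higher with WFA. TRAP1 lies under the line and HSP90B1 next to it, while HSP90AA1 moves from 614 to 3628 CPM per kb.

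Of 42 other genes listed as HSP90 co-chaperones, 38 were tested, and 15 were called higher and 12 lower, with a median log2 fold change of 0.05. Over all tested genes 25.8% were higher and 24.7% lower, with a median of 0.02. None of the 12 fell more than 2-fold, and 5 of the 15 rose more than 2-fold, beside 5.2% and 8.11% of all tested genes.

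Among the 11 tested co-chaperones with TPR domains, 4 were higher and 4 lower, beside 25.8% and 24.7% of all tested genes. PPID (cyclophilin 40), an immunophilin like FKBP4, rose from 83.3 ± 7.49 to 238 ± 6.95 CPM (SD, n = 3 each). Its log2 fold change was 1.51 (SE 0.09, edgeR adjusted p = 5.45e-09). DNAJC7, which also binds HSP70, rose by 0.93 on the log2 scale, and FKBP8 and UNC45A rose by 0.48 and 0.29. TOMM70A, the mitochondrial import receptor that takes preproteins from the chaperones, fell from 202.3 ± 4.27 to 124 ± 8.62 CPM (SD, n = 3 each). That is a log2 fold change of -0.70 (SE 0.08, edgeR adjusted p = 7.60e-06). The phosphatase PPP5C and FKBP5 had log2 fold changes of -0.52 and -0.51. TTC4, at 3.16 CPM with DMSO, had -0.996. FKBPL, UNC45B and AIPL1 had at most 1 count in any library.

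Among 14 tested genes listed as CS-domain or related co-chaperones, 6 were higher and 4 lower, beside the same 25.8% and 24.7%. The 6 include ITGB1BP1 (log2 fold change 0.27, edgeR adjusted p = 0.0311), an integrin-binding protein that is not an established HSP90 co-chaperone. CACYBP had a log2 fold change of 1.76 (SE 0.11), SUGT1 of 1.75 (SE 0.10), AHSA2 of 1.70 (SE 0.14) and NUDC of 1.52 (SE 0.10), with edgeR adjusted p-values of 9.85e-09, 2.63e-09, 1.28e-07 and 1.18e-08. SUGT1 joins HSP90 to immune receptors and to kinetochore assembly. AHSA2 resembles AHSA1, and newer gene naming lists it as a pseudogene (AHSA2P). CDC37L1, the relative of CDC37, went down with a log2 fold change of -0.34 (SE 0.12, edgeR adjusted p = 0.0296), and PTGES3L, the relative of PTGES3, with -0.41 (SE 0.15, edgeR adjusted p = 0.0333). The histone chaperone NASP and NUDCD1 fell by 0.55 and 0.71 on the log2 scale. CNPY3, the co-chaperone of GRP94 for Toll-like receptors, had a log2 fold change of -0.19 (SE 0.10) and did not pass the threshold (edgeR adjusted p = 0.118).

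The R2TP and TTT complexes use HSP90 to assemble RNA polymerases, snoRNPs and large kinases. They and the genes listed as signalling co-chaperones gave 5 higher and 4 lower of 13 tested, again beside 25.8% and 24.7% of all genes. RUVBL1 and RUVBL2, partner ATPases of R2TP, went opposite ways. RUVBL1 fell, with 111 ± 1.65 CPM under DMSO and 57.7 ± 2.46 CPM under WFA (SD, n = 3 each). The log2 fold change of RUVBL1 was -0.95 (SE 0.08, edgeR adjusted p = 2.87e-07). RUVBL2 rose, with 115 ± 9.91 CPM under DMSO and 167 ± 4.76 CPM under WFA (SD, n = 3 each). That of RUVBL2 was 0.54 (SE 0.09, edgeR adjusted p = 0.000129). TELO2 and TTI1 of the TTT complex had -0.47 and -0.40, and RPAP3 had -0.25. FNIP2 and TSC1, co-chaperones that slow the HSP90 ATPase, rose with log2 fold changes of 0.74 and 0.70. FLCN, which acts in mTOR signalling and is not itself an established HSP90 co-chaperone, rose with 0.54.

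**Figure D4:**
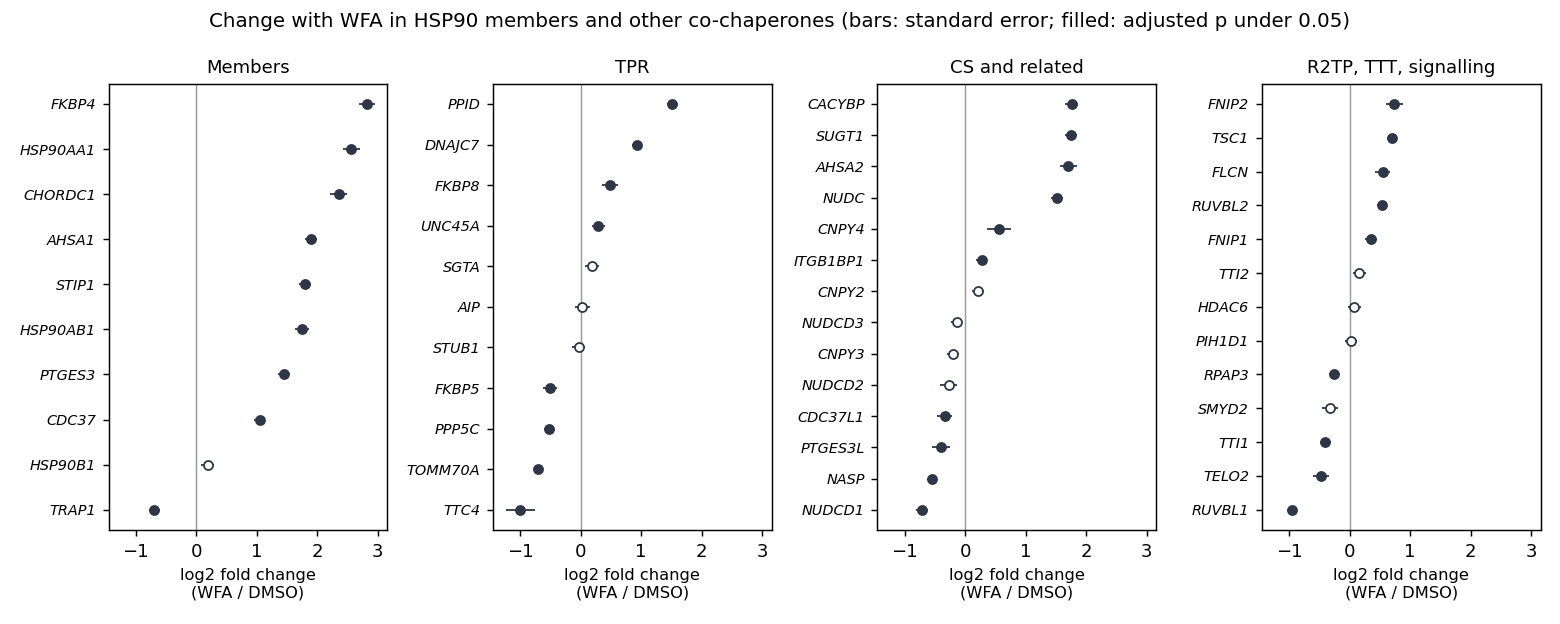
Log2 fold change (WFA over DMSO, bars for the standard error) of the 10 members and of 38 tested genes listed as co-chaperones in 3 classes. Points are filled where the edgeR adjusted p-value is under 0.05. The members run from -0.69 for TRAP1 to 2.82 for FKBP4, and the other classes spread to both sides of 0, with the highest value at 1.76 for CACYBP.

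Counts of calls in the chaperone families that act before or beside HSP90 are given for comparison. In the HSP70 and HSP110 family, 11 of 12 tested genes were higher and 1 was lower, with a median log2 fold change of 1.30, beside 25.8% and 24.7% of all tested genes. HSPA1A, with at most 2 counts in any library, was not tested. Its close copy HSPA1B had 1.75 CPM with DMSO and 38.9 CPM with WFA. How reads that match both genes were counted is not given in the sources used here. HSPH1, the HSP110 nucleotide exchange factor, rose with a log2 fold change of 2.93 (SE 0.12, edgeR adjusted p = 1.84e-10), and HSPA4L with 2.42 (SE 0.13, edgeR adjusted p = 2.33e-09). Of 11 chaperonin genes, 9 were higher and 0 lower in edgeR (0 lower at an unadjusted p-value under 0.05, and 0 in DESeq2), with a median of 0.59. The mitochondrial pair HSPD1 and HSPE1 rose with log2 fold changes of 1.93 and 1.92 (SE 0.11 and 0.10, edgeR adjusted p = 2.89e-09 and 1.08e-09), whereas TRAP1 of the same compartment fell. The difference between families was not tested.

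The genes whose centred log2 CPM values lay nearest to a member over the 6 libraries were listed as a description. For HSP90AB1 the nearest of all tested genes was STIP1, at a Euclidean distance of 0.12, and PGD at 0.16, SUGT1 at 0.17 and C7orf60 at 0.18 were also among the 5 nearest. For HSP90AA1 they were ME1 at 0.21, CRYZ at 0.24, BEND4 at 0.29, KIAA1522 at 0.29 and IL7R at 0.34. No member was among the 5 nearest to HSP90AA1, and its closest member was FKBP4 at 0.45. All points rest on the same 6 libraries, and no test was made.

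Copies of the HSP90 genes without a known protein product were listed with few reads. HSP90AB4P, with no library above 9 counts, was too low to test. HSP90B2P had 10 to 16 counts with DMSO and 5 to 9 with WFA, with a log2 fold change of -0.61 (SE 0.38, edgeR adjusted p = 0.191). How reads that match several copies were counted is not given in the sources used here, so values of HSP90AA1 and HSP90AB1 carry that uncertainty.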

How the data were processed

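Total RNA of THP1 cells was sequenced after Illumina TruSeq RNA v2 library preparation. The authors deposited raw counts of reads per gene for each of the 6 libraries. The submitters' processing notes name bcl2fastq 2.19, Trimmomatic, Bowtie2, Picard, featureCounts and DESeq2, with genome build hg38. Settings, annotation and the treatment of multiply mapped reads are not given in the sources used here. Size-factor scaled values and the authors' own comparison (group means, fold changes, p-values) stand beside the counts and were not used.

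Counts were tested with edgeR 4.0.16 in R 4.3.3 (TMM, filterByExpr with a minimum count of 10, quasi-likelihood test, Benjamini-Hochberg adjustment over 12854 genes, threshold 0.05, no block). Log2 CPM used a prior count of 2, and ratios an added 0.5 counts. Alternatives used DESeq2 1.42.0 and other scalings, filters, a robust fit, the replicate block and each library left out. In counts simulated for this comparison with 12752 genes in the fit, 83.8% of 99 genes changed 2-fold and 100% of 99 changed by a log2 of 2 were recovered. That simulation changed 200 genes, against 6489 called in the real data, so recovery in the real data may differ.

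Replicate numbers pair the libraries, since same-numbered libraries come from 1 experiment and share a code in the labels. Their deviations from group means correlated across genes at 0.22, 0.33 and 0.25, against -0.26 to 0.0037 for other pairs. Pairs of libraries within a group differed by a chi-square per gene of 5.92 to 10.9, more than sampling noise, so none was taken as a duplicate. Intervals and floors of counts were not needed for the members, the lowest of which was FKBP4 in DMSO replicate 3 at 577 counts.

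The members, gene lists and alternatives were chosen with earlier results of these data known. Named were all members, pseudogenes of HSP90 with at least 10 counts, up to 4 called genes with the smallest p-value in each direction on each list, FKBP5, and the 5 nearest genes to HSP90AA1 and to HSP90AB1. Some genes that this rule names are not reported here. CNPY3, NR3C1 and genes too low to test lie outside that rule and were added after their values were seen. Gene positions and exons came from GENCODE 29 (GRCh38), where all 10 members were found, and promoters from RefSeq.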

Additional observations from a re-analysis of the deposited data

How the results depend on the processing

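The 8 rises and the 1 fall among the members were called in every alternative, and HSP90B1 was called in none of them, with adjusted p-values from 0.0576 (edgeR, replicate block) to 0.558 (edgeR, without WFA replicate 1) and log2 fold changes between 0.09 and 0.27 without single libraries. Pairing the libraries by a replicate block gave log2 fold changes of 2.57 for HSP90AA1, 1.74 for HSP90AB1, 0.18 for HSP90B1 and -0.70 for TRAP1. It changed no call among the members, and that fit, with 2 residual degrees of freedom in place of 4 and an infinite prior in place of 10.8, called 3877 genes higher and 3708 lower. Scaling by total counts alone lowered the members by less than 0.1 on the log2 scale, and gave 2763 higher and 3875 lower genes against 3311 and 3178. Without single libraries 2942 to 3176 genes were higher and 2815 to 3016 lower, while members stayed at 8 higher and 1 lower. The lowest count of a member in any library was 577, and the effect of depth on other genes was not tested.

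Without single libraries the log2 fold changes were 2.47 to 2.68 for HSP90AA1, 1.68 to 1.80 for HSP90AB1, -0.79 to -0.64 for TRAP1, 2.68 to 2.996 for FKBP4, 2.24 to 2.49 for CHORDC1, 1.80 to 1.97 for AHSA1, 1.72 to 1.87 for STIP1, 1.40 to 1.49 for PTGES3 and 0.97 to 1.09 for CDC37. The CS-domain list had 4 to 6 genes higher and 2 to 5 lower, and medians from -0.16 to 0.22. GRP94 clients had 1 to 3 higher, 5 to 7 lower and medians from -0.42 to 0.035. Kinase clients had 5 to 7 higher and 8 to 11 lower, with medians from -0.13 to -0.045, and receptor and factor clients 3 to 6 higher and 1 to 4 lower, with medians from 0.026 to 0.10. The HSP70 family had 0 to 1 lower.

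The replicate block called 11 kinase clients higher and 4 receptor and factor clients lower. Total counts gave 7 lower and a median of -0.051 for the CS-domain list, 3 higher, 4 lower and a median of 0.019 for receptor and factor clients, and medians of -0.14 for kinase clients and -0.20 for GRP94 clients. The kinase median was -0.069 with DESeq2 and with its size factors in edgeR (RLE), -0.071 with the stricter filter and -0.10 without a filter. RLE gave 2 and no filter 3 receptor and factor clients lower. The GRP94 median was -0.0089 without a filter and 0.050 with the stricter filter, which called 3 lower. HSPA14, the 1 HSP70 gene called lower, was not called with DESeq2, without a filter or with the stricter filter (0 lower each), and the family median was 0.95 without a filter. The causes were not tested. Without the other most counted genes in the denominator the WFA minus DMSO differences in share were 2.69 percentage points for the cytosolic pair, 2.70 for the 4 paralogs and 0.425 for the co-chaperones, against 2.12, 2.13 and 0.319. Those were 2.02 to 2.27, 2.03 to 2.30 and 0.315 to 0.325 without single libraries. By the longest transcript 2 members changed rank in each group, and HSP90AA1 and HSP90AB1 overlapped with DMSO and not with WFA. Summing pseudogene counts moved no member's call, but those counts reached at most 16 in a library, too few to move one. The sum does not address reads that match several copies. A search by name (HSP90AA, a number, then P) found no copy of HSP90AA1, and older names were not searched.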

Other observations

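Genes of HSP90 clients were described from lists of well-known clients, at the level of RNA. Of 31 tested kinase clients, 7 were higher and 10 lower with WFA in edgeR's test, with a median log2 fold change of -0.06. Beside these counts stand 25.8% higher and 24.7% lower of all tested genes, and the difference was not tested. The replicate block called 11 kinase clients higher and 12 lower, and 3877 and 3708 of all 12854 tested genes. The receptor tyrosine kinase KIT had the largest fall of the list, from 18.6 ± 2.04 to 2.11 ± 0.803 CPM (SD, n = 3 each). FLT3, another receptor kinase of myeloid progenitors, went from 119 ± 13.2 to 64.7 ± 13.9 CPM, and JAK2 from 92.5 ± 2.88 to 56.1 ± 4.58 CPM (SD, n = 3 each), with log2 fold changes of -0.87 and -0.72 (edgeR adjusted p = 5.64e-05 and 9.92e-06). CHEK1, the DNA damage checkpoint kinase, had -0.61. On the other side ERN1 and EIF2AK3, the IRE1 and PERK sensors of unfolded protein, had log2 fold changes of 1.02 and 0.66 (edgeR adjusted p = 0.000165 and 0.000548), and BRAF and PDPK1 had 0.66 and 0.60.

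Of 12 tested clients of GRP94, 3 were higher and 5 lower, beside 25.8% and 24.7% of all tested genes. The median log2 fold change was -0.11, and turned to 0.050 with a stricter filter and 0.035 without DMSO replicate 1. TLR2, a receptor for bacterial lipoproteins, fell from 150.0 ± 11.99 to 46.5 ± 4.55 CPM and the integrin ITGA4 from 228 ± 26.4 to 80.7 ± 6.35 CPM (SD, n = 3 each), with log2 fold changes of -1.69 and -1.50 (edgeR adjusted p = 4.40e-09 and 2.00e-08). TLR4 had -0.68, and TLR8, at 3.91 CPM with DMSO, had -2.24. TLR6, the partner of TLR2, rose with 0.91, and LRP6 and TLR1 with 0.44 and 0.37. Among 14 tested receptors and transcription factors that are HSP90 clients, 6 were higher and 1 lower, beside 25.8% and 24.7% of all tested genes. That balance was 3 to 4 with total counts and 6 to 4 with the replicate block. PGR and BCL6 had the largest values, 1.88 and 1.75, from 8.12 and 11.4 CPM with DMSO. IRF1 had 0.38, and NLRP3, the inflammasome sensor, had -0.57. The glucocorticoid receptor NR3C1 had 0.08 (standard error 0.08) and did not pass the threshold (edgeR adjusted p = 0.443).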
